A study of Mus musculus with 6 samples.

Results

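The astrocyte genes Slc1a2, Gfap and Gja1 and the oligodendrocyte genes Mbp and Sox10 were followed through ATAC-seq peak lists of the mouse dentate gyrus. Each gene was represented by a fixed window on the mm9 genome, made of the gene span and 50 kb on either side. Peaks of the 6 libraries that touched or overlapped were merged, and 51 of the 70575 merged regions on chromosomes 1 to 19 and X lay in the 5 windows. The Slc1a2 window held 16 regions, Gfap 7, Gja1 5, Mbp 17 and Sox10 6.

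ATAC-seq uses the transposase Tn5 to insert sequencing adapters into open DNA, so that a peak marks an accessible site. The libraries came from microdissected dentate gyrus of mice 8 weeks old that had received an adeno-associated virus (AAV). In 3 mice the virus expressed EYFP, a fluorescent control protein, and in 3 mice it expressed cFos, an AP-1 transcription factor made by activated neurons; each library was made from 1 mouse. All labels give a C57BL strain, but the number after the slash rises by 1 from sample to sample, from C57BL/6 onward, and was not used. The promoter and serotype of the virus, and whether cFos mice also received EYFP, were not given in the sources used here. The comparison asks whether accessibility at these glial genes differed when cFos was expressed.

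Glial cells make up part of the dentate gyrus beside its granule neurons. Astrocytes clear glutamate from synapses through transporters such as GLT-1, the product of Slc1a2, and form gap-junction networks of connexin 43, the product of Gja1. Oligodendrocytes wrap axons in myelin, whose protein MBP is encoded by Mbp and whose production depends on the transcription factor SOX10. The tissue was not sorted, so a site used by few cells gives few reads, and fewer cells of a type and lower accessibility per cell cannot be told apart. Whether the dissected tissue carried the marks of granule cells was not analysed here.

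The RefSeq promoter table held 3 of the 5 members, Slc1a2, Gfap and Gja1. Promoter sequences are shown for the 2 members with the start of the gene in that table and a called region within 2 kb of that end of the gene. They are the 300 bases from 250 before to 50 after the start, on GRCm38.p6, and their coordinates are not those of the peaks. Capitals mark matches to TGANTCA, the letters bound by AP-1 factors such as cFos, and to TTCNNNGAA, the letters bound by STAT factors.
Gja1 promoter, chr10:56377050-56377349, + strand: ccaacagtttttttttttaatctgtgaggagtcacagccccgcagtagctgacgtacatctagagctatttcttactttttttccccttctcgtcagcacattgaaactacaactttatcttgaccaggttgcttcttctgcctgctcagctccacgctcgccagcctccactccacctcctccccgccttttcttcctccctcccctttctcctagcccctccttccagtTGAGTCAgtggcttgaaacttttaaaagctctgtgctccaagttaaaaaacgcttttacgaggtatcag
Gfap promoter, chr11:102897151-102897450, - strand: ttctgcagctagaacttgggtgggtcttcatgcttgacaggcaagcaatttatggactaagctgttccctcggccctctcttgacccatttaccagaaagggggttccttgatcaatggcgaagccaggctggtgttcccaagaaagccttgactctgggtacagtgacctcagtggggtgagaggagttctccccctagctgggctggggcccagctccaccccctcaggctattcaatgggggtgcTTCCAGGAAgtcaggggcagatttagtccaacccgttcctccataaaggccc

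The Gja1 promoter held 1 AP-1 match, at bases 232 to 238 of the printed sequence. Over the 32851 promoters of the table, 7.81% held TGANTCA on either strand. The Gfap promoter held 1 STAT match, at bases 249 to 257, and 8.30% of all promoters held those letters. Neither promoter held the SOX letters ACAAAG or ACAATG (28.6% of promoters), the palindromic NFI motif (0.0365%), CCAAT (37.4%) or TATAAA (13.6%) on either strand. A match is a description of these letters, and no peak was placed on them. The entry for Slc1a2 in the table starts 48.2 kb inside the gene, not at its first exon, and was not used.

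Across the 5 windows, the libraries from mice given EYFP held more called peaks than those from mice given cFos. The EYFP lists had 26, 37 and 28 peaks there in replicates 1 to 3, and the cFos lists had 13, 12 and 19. Every EYFP library lay above every cFos library, and the means were 30.3 ± 5.86 and 14.7 ± 3.79 peaks (SD, n = 3 each). The peaks covered 14730, 23849 and 16143 bases in the EYFP lists and 6747, 5670 and 10443 in the cFos lists, again without overlap. Whole lists also differed in length, from 29896 to 44285 peaks in EYFP and from 23986 to 34690 in cFos libraries, and cFos peaks took up less sequence, 13.7 to 18.8 Mb against 20.3 to 30.8 Mb. Read depth is unknown, since the files hold peaks and no counts of reads, and a site absent from a list may still be open.

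The difference was also present in relation to the length of the lists. The windows held 0.0870%, 0.0835% and 0.0848% of the peaks of EYFP replicates 1 to 3, and 0.0487%, 0.05003% and 0.0548% of those of cFos replicates 1 to 3. The EYFP shares were nearly equal, and the highest cFos share was below the lowest EYFP share. The mean shares were 0.0851 ± 0.00173% and 0.0512 ± 0.00321% (SD, n = 3 each). With every list shortened to its 23986 highest-scoring peaks, the number in the shortest list, the windows held 20, 18 and 19 peaks in EYFP and 11, 12 and 14 in cFos libraries. With peaks scoring above 93.41, the median of all lists, the mean difference in share kept its direction but the groups overlapped. As a share of all covered bases, the windows took 0.0746 ± 0.00259% in EYFP and 0.0474 ± 0.00735% in cFos libraries. These sums over chosen genes were not tested.

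**Figure D1:**
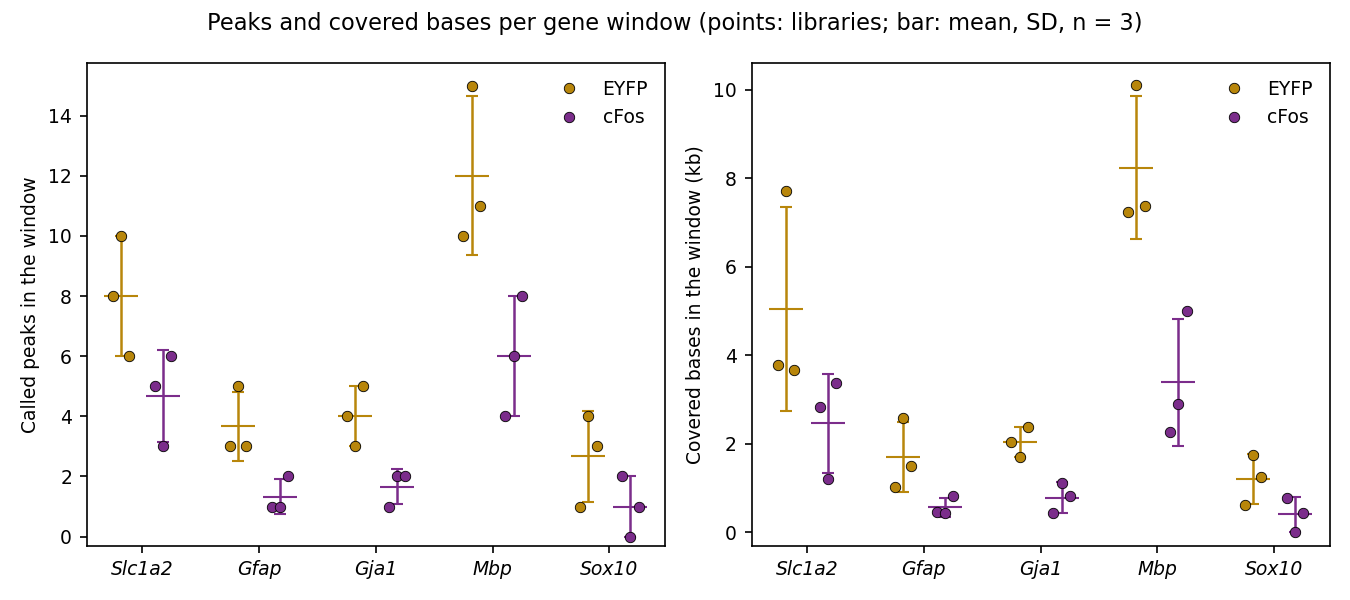
Called peaks (left) and covered kilobases (right) in each gene window; points are libraries, and the bar and whiskers give the mean and SD of 3 libraries. The EYFP and cFos points do not overlap in peaks for Gfap, Gja1 and Mbp, nor in covered bases for those and Slc1a2.

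As a background for single windows, the same measures were taken in the 150 kb tiles of the genome, of which 15038 held a peak and 6806 held at least 5 merged regions, as each window does. In number of peaks, 3 of the 5 windows had every EYFP library above every cFos library (Gfap, Gja1 and Mbp), against 5.43% of tiles with a peak and 6.82% of tiles with at least 5 regions. In covered bases it was 4 of 5 (these and Slc1a2), against 26.2% and 33.9%, so that more covered sequence in every EYFP library was common across the genome. As a share of each list's peaks it was Gfap and Mbp, against 7.73% of tiles with at least 5 regions. In peaks on equal-length lists it was Mbp alone, against 2.72%. In covered bases on equal-length lists, Gja1, Mbp and Sox10 were apart, and Slc1a2 and Gfap overlapped. No tile share was taken for that measure, in which narrower cFos peaks also count. With peaks also set to 400 bp, Mbp alone was apart, against 2.76% of tiles with at least 5 regions. The opposite order, every cFos above every EYFP library, occurred in 0 of the 5 windows for these measures. In tiles with at least 5 regions it occurred in 0.529% for peaks, 0.367% for covered bases and 6.46% for the share of peaks. On equal-length lists it occurred in 2.85% of these tiles for peaks and 2.94% for covered bases with peaks set to 400 bp. In tiles with a peak it occurred in 0.698% for peaks and 0.871% for covered bases. With flanks of 10 kb the Mbp window alone stayed apart, in peaks and in covered bases. No window could pass an adjustment: over 15043 tests, all tiles with a peak and the windows, the Benjamini-Hochberg adjusted exact permutation p was 0.370 for the covered bases of Slc1a2, Gfap, Gja1 and Mbp, 0.495 for Sox10, and 1 for every window in number of peaks.

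The ratio of the cFos mean to the EYFP mean put the 5 windows on the low side of the tiles. In covered bases it was 0.489 for Slc1a2, 0.336 for Gfap, 0.385 for Gja1, 0.411 for Mbp and 0.337 for Sox10. The median of the tiles was 0.637, and 10% of tiles lay below 0.354. In number of peaks the ratio was 0.583 for Slc1a2, 0.364 for Gfap, 0.417 for Gja1, 0.5 for Mbp and 0.375 for Sox10, against a median of 0.8 and a 10th percentile of 0.444. All 5 windows were thus below the median tile in both measures, and the windows, from 110 to 233 kb, are not of the tiles' length.

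**Figure D2:**
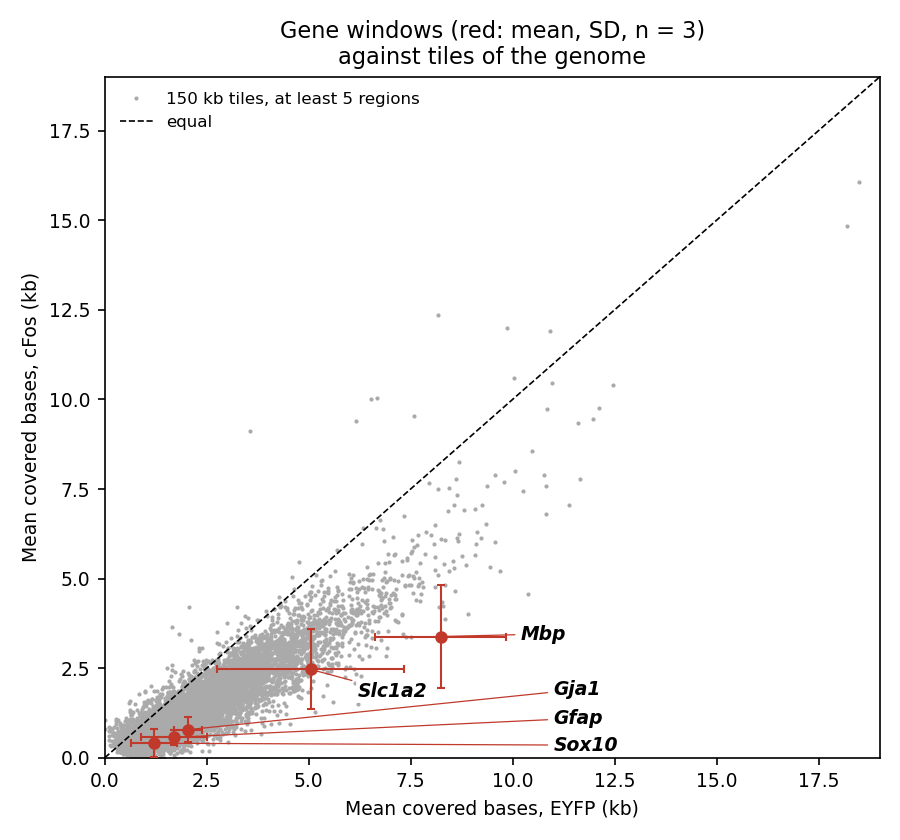
Mean covered bases in cFos (y axis, kb) against EYFP libraries (x axis, kb) for 6806 tiles of 150 kb (grey) and the 5 gene windows (red, mean and SD, n = 3). Most tiles lie below the dashed line of equality, and the windows lie in the lower part of that cloud.

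**Figure D3:**
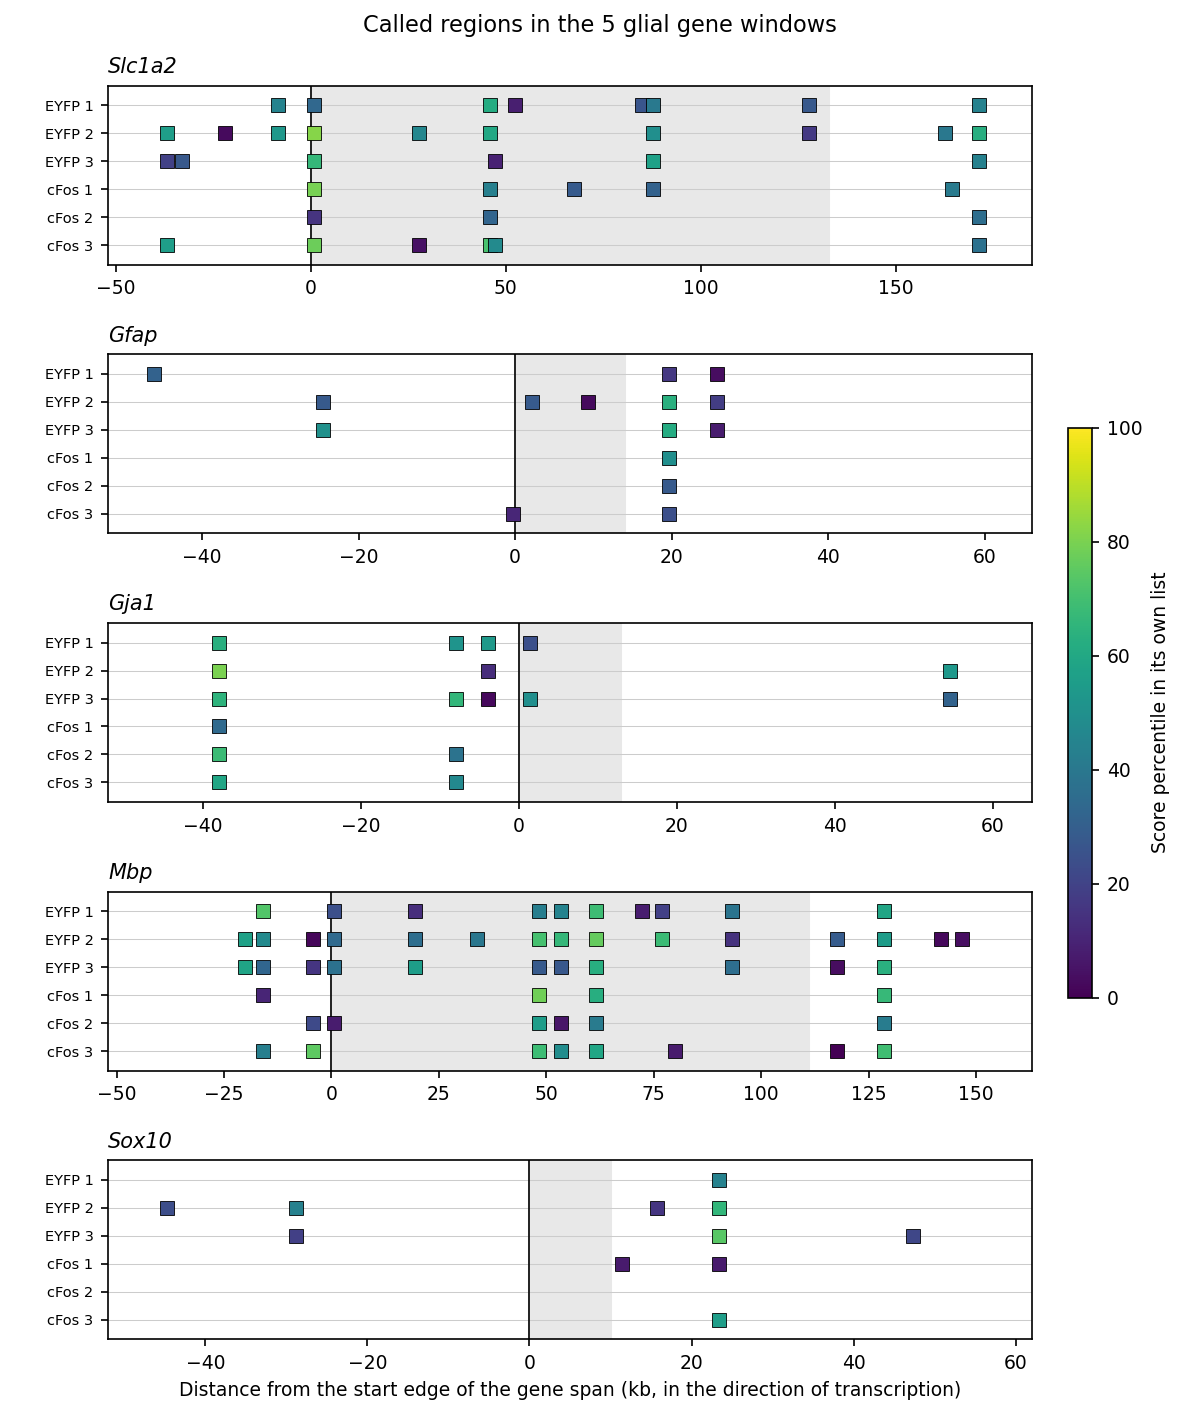
Called regions in the 5 windows, by distance from the start edge of the gene span in kb along the direction of transcription (x axis) and by library (rows). Each square is a merged region that the library called, its colour gives the score percentile in that library's own list, and grey marks the gene span; the Slc1a2 start region is called in all 6 libraries and the Sox10 span is empty in all 6.

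Slc1a2, the gene of the main glutamate transporter of astrocytes, was the only member with a region across its start edge, with edges rounded to 1 kb. At Mbp and Gfap a region lay 0.032 and 0.132 kb from the edge, within that rounding. The Slc1a2 region, chr2:102497723-102499973 (mm9), was 2251 bp wide, the widest of the 51, and was called in all 6 libraries. Its scores were 71.37, 249.59 and 133.78 in EYFP replicates 1 to 3 and 181.47, 56.01 and 183.43 in cFos replicates 1 to 3. Scores are the authors' values per peak, and only the stricter cut at 93.41 was applied to all lists alike. Otherwise scores were read only within a list, as the percentile of a peak among all peaks of that list. The percentiles were 33.5, 81.8 and 66.6 in EYFP and 79.4, 14.9 and 77.5 in cFos libraries, so the groups overlapped widely. The mean percentile was 60.6 ± 24.7 in EYFP and 57.3 ± 36.7 in cFos libraries (SD, n = 3 each), and the two-sided exact permutation p was 0.8.

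Within the Slc1a2 span, the most often called region lay 45.6 kb from the start, at chr2:102543561-102544597. It was called in EYFP replicates 1 and 2 and in all cFos libraries, with percentiles of 61.4 and 60.1 in EYFP and 43.1, 32.3 and 71.1 in cFos. A region 87.3 kb from the start, chr2:102585293-102586129, was called in all EYFP libraries, at percentiles 40.4, 49.6 and 57.3, and in cFos replicate 1 alone, at 30.9. Downstream of the gene, chr2:102669308-102669750 was called in 5 libraries and missed in cFos replicate 1. The gene table lists Cd44 on that side of Slc1a2 and Pamr1 on the other, so regions in the flanks cannot be assigned to Slc1a2. None of the 16 regions was called in all libraries of 1 group and none of the other. The window held 8, 10 and 6 peaks in EYFP and 5, 3 and 6 in cFos libraries, which touch at 6 (two-sided exact permutation p = 0.2). Covered bases were 3781, 7702 and 3664 against 2829, 1213 and 3362, without overlap, and the mean difference of -2581 bases became -1255 without EYFP replicate 2.

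Gfap, the gene of the intermediate filament protein that marks astrocytes, had no region called in more than 1 library within its span or at its start. The nearest region to the start edge, chr11:102762132-102762521, ended 0.132 kb upstream of it and was called in cFos replicate 3 alone, with a score of 54.63 at percentile 10.6. EYFP replicate 2 alone called chr11:102759659-102760131 and chr11:102752461-102752887 within the span, at percentiles 27.9 and 2.4. The span edges are rounded to 1 kb, so distances near 0 carry that uncertainty.

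The most often called Gfap regions lay in the flank beyond the end of the gene. There chr11:102741901-102742839, 19.2 kb from the start, was called in all 6 libraries. Its percentiles were 16.1, 63.4 and 61.6 in EYFP and 49.5, 27.8 and 24.1 in cFos libraries, which overlapped (two-sided exact permutation p = 0.4). The region beside it, chr11:102735874-102736490, was called in all EYFP and no cFos libraries, with low scores of 51.33, 60.96 and 53.62, close to the lowest score of 50 in any list. On that side the GRCm38.p6 gene table lists Fam187a, Ccdc103, Eftud2 and Higd1b within 50 kb of Gfap, so these regions cannot be assigned to Gfap. In the upstream flank, chr11:102786340-102786773 was called in EYFP replicates 2 and 3, at percentiles 27.8 and 50.1, and chr11:102807947-102808187 in EYFP replicate 1 alone, with a score of 68.64. The table lists Kif18b and C1ql1 on that side. The window as a whole held 3, 5 and 3 peaks in EYFP and 1, 1 and 2 in cFos libraries. It covered 1030, 2589 and 1488 against 454, 443 and 819 bases, without overlap in either measure (two-sided exact permutation p = 0.1 for each, the smallest that 3 against 3 allows). Without EYFP replicate 2 the mean difference in covered bases went from -1130 to -687.

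Gja1, which encodes connexin 43, had its most often called region 37.6 kb upstream. That region, chr10:56058773-56059382, was called in all 6 libraries, at percentiles 63.0, 79.8 and 64.6 in EYFP and 34.2, 68.0 and 59.3 in cFos (two-sided exact permutation p = 0.3). Nearer the gene, chr10:56088810-56089446 was called in EYFP replicates 1 and 3 and in cFos replicates 2 and 3. The region nearest the start, chr10:56098009-56098779, lay 1.01 kb inside the span and was called in EYFP replicate 1 (score 63.12) and EYFP replicate 3 (score 91.4) and in no cFos library.

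Gja1 also had a region called in every EYFP and no cFos library, chr10:56092835-56093334, 3.67 kb upstream of the start edge. It scored 99.37, 57.31 and 50.97 in EYFP replicates 1 to 3, at percentiles from 53.7 down to 2.3. The gene table lists no other protein-coding gene within 50 kb of Gja1. Peaks in the window numbered 4, 3 and 5 in EYFP and 1, 2 and 2 in cFos libraries. They covered 2050, 1709 and 2378 against 428, 1122 and 812 bases (two-sided exact permutation p = 0.1 for both). The mean, 2046 ± 335 in EYFP and 787 ± 348 bases in cFos libraries (SD, n = 3 each), differed by more than the spread in either group.

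Mbp, the gene of a major myelin protein, had the most regions and the largest covered length of the 5 windows. It held 10, 15 and 11 peaks in EYFP and 4, 6 and 8 in cFos libraries (two-sided exact permutation p = 0.1). The peaks covered 7242, 10094 and 7362 bases in EYFP and 2258, 2892 and 5004 in cFos libraries (p = 0.1 by the same exact test). No cFos library reached the lowest EYFP library in either measure. The means were 8233 ± 1613 and 3385 ± 1438 bases (SD, n = 3 each). The share of each list's peaks in the window was nearly the same in EYFP libraries, 0.0334%, 0.0339% and 0.0333%, and lower in cFos libraries, 0.0150%, 0.0250% and 0.0231%. On equal-length lists the window held 7, 7 and 8 peaks against 4, 6 and 6.

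The region nearest the start edge of the Mbp span, chr18:82644032-82645176, began 0.032 kb inside that edge. It was called in all EYFP libraries, at percentiles 24.6, 34.1 and 37.3, and in cFos replicate 2 alone, at 7.7. Starts of other transcripts within the span were not placed. A region 79.6 kb from the edge, chr18:82723593-82724339, was called in cFos replicate 3 alone, at percentile 7.3. It was the 1 Mbp region with more cFos than EYFP calls, against 12 with more EYFP calls. In 2 places within the span all EYFP and no cFos libraries called a region. The first, chr18:82663203-82663850, was 19.2 kb from the start and scored 56.02, 79.89 and 102.72. The second, chr18:82736941-82737589, was 92.9 kb from the start and scored 76.71, 58.48 and 73.3.

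Other Mbp regions were shared by all 6 libraries. The region chr18:82691613-82692748, 47.6 kb from the start, had percentiles of 42.4, 70.4 and 27.8 in EYFP and 78.2, 55.1 and 68.5 in cFos libraries; its mean was higher in cFos, at 67.3 ± 11.6 against 46.9 ± 21.7, and the groups overlapped (two-sided exact permutation p = 0.3). The region chr18:82704987-82706298, 61.0 kb from the start, went the other way, with 68.7, 76.4 and 62.8 against 62.7, 41.1 and 59.1. Its groups did not overlap, by a margin between 62.8 and 62.7 (two-sided exact permutation p = 0.1). It was also narrower in every cFos library, whose peaks covered 512, 556 and 498 of its bases against 1135, 1221 and 953 in EYFP. The region chr18:82772091-82773091, beyond the end of the gene, had nearly equal means, 59.0 ± 4.42 in EYFP and 59.2 ± 15.4 in cFos libraries (SD, n = 3 each). The gene table lists Zfp236 as the next protein-coding gene on that side.

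Sox10, the gene of the transcription factor that oligodendrocyte-lineage cells carry, had the fewest called peaks and the fewest covered bases of the 5 windows on average. No library called a region within its 10 kb span. The region closest to its start edge lay 11.2 kb from it, past the far end of the gene, and was called in cFos replicate 1 alone, with a score of 52.84. The one region called in most libraries, chr15:78971330-78972020, lay 23.0 kb from the start, also past the end of the gene. It was called in 5 libraries, with scores of 84.1, 150.09 and 166.31 in EYFP, 52.82 in cFos replicate 1 and 102.88 in cFos replicate 3, and it was the widest Sox10 region at 691 bp. The gene table lists Polr2f, 1700088E04Rik and Micall1 on that side, so it cannot be assigned to Sox10.

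The Sox10 window held 1, 4 and 3 peaks in EYFP and 2, 0 and 1 in cFos libraries, which overlapped (two-sided exact permutation p = 0.3). Covered bases were 627, 1755 and 1251 against 778, 0 and 446 (two-sided exact permutation p = 0.2). With flanks of 10 kb in place of 50 kb the difference was no longer toward EYFP, at 0 peaks and 8 bases, so the excess of EYFP calls lay more than 10 kb from the gene.

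Most member regions were called in more EYFP than cFos libraries. All EYFP and no cFos libraries called 4 of the 51 regions, or 7.84%, against 1.97% of all merged regions. They are the regions described above, 1 at Gfap, 1 at Gja1 and 2 at Mbp. All cFos and no EYFP libraries called 0 of 51, against 0.449%. More EYFP than cFos libraries called 35 of the 51 regions, more cFos than EYFP libraries 6, and equal numbers 10; over all merged regions the shares were 47.6% and 25.4%, against 68.6% and 11.8% here. The 4 EYFP-only regions were weak, with mean percentiles of 9.56 at Gfap, 22.8 at Gja1 and 34.7 and 29.5 at Mbp. None of them remained EYFP-only on equal-length lists or above the stricter score, where the count was 0. It was 8 without EYFP replicate 1 and 7 without EYFP replicate 3, but the rule then asks for fewer libraries. That alone can raise the count, and no share over the genome was taken for the looser rule.

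Of the 51 regions, 6 were called in all libraries, or 11.8%, against 16.8% of all merged regions, and 20 were called in 1 library, or 39.2%, against 43.7%. EYFP replicate 2, the longest list, supplied 9 of these 20. Among the 6 shared regions, the percentile ranges of the groups were apart in 1, the Mbp region 61.0 kb from the start, with EYFP higher; over all shared regions this held for 13.2%, and the opposite for 2.03%. The mean percentile over the 6 was 58.7 ± 12.0 in EYFP and 54.3 ± 11.2 in cFos libraries (SD, n = 3 each), a difference within the spread that turned to 1.82 in favour of cFos without EYFP replicate 2. Peaks of cFos libraries covered fewer bases on average in 5 of the 6 regions, as they did in 92.4% of the shared regions of the genome.

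Calls were more frequent on average in EYFP libraries within the gene spans and in both flanks. They are not corrected for list length, and no share over the genome was taken by place. Over all tiles with a peak, the ratio of cFos to EYFP peaks was 0.796. Of the regions within the spans, 10 lay at Mbp, 8 at Slc1a2, 2 at Gfap, 1 at Gja1 and 0 at Sox10. The 21 regions within the gene spans were called 14, 14 and 9 times in EYFP and 5, 5 and 7 times in cFos libraries. The 15 in upstream flanks were called 6, 11 and 10 times against 2, 3 and 6. The 14 in downstream flanks were called 5, 11 and 8 times against 5, 3 and 5, where the groups touched at 5. The remaining region is the one across the Slc1a2 start, called in all libraries.

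The member peaks ranked low in their lists in both groups. Of the 135 peaks in the windows, 87 (64.4%) lay below the 50th percentile of their own list, 1 lay above the 80th, and 0 above the 90th. The highest was the Slc1a2 start peak of EYFP replicate 2, at percentile 81.8. The median percentile of member peaks was 39.4, 43.5 and 36.5 in EYFP and 41.2, 34.0 and 48.5 in cFos libraries, which overlapped. The median width of member peaks was 530 ± 31.4 bp in EYFP and 458 ± 7.23 bp in cFos libraries (SD, n = 3 each), without overlap, and whole lists showed the same order, from 553 to 569 bp against 437 to 479 bp. Merged member regions had a median width of 610 bp, against 518 bp over all merged regions.

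**Figure D4:**
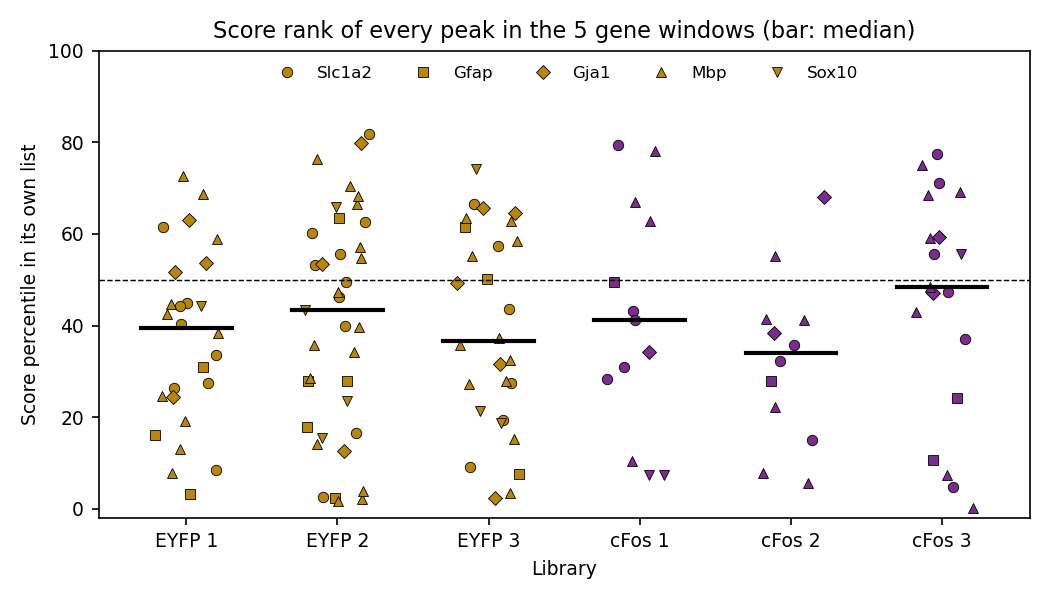
Score percentile of each peak in the 5 windows within its own list (y axis) by library (x axis), with 1 symbol per gene and a bar at the median. The bars lie between 34.0 and 48.5, below the dashed line at 50, and no peak exceeds 81.8.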

How the data were processed

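The deposited files are peak lists, 1 per library (3 EYFP and 3 cFos, grouped by title), with a score from 50 to 3100 set by the authors and deposited without a unit. The submitters' processing notes name Bowtie2 and mm9; the peak caller's settings and the treatment of duplicates or the Tn5 shift are not stated there. A library called a merged region by an overlap of at least 1 bp, and a region takes its highest peak. Group means were compared by two-sided exact permutation over 20 assignments (smallest p 0.1). The 3 libraries per group set the precision, as no read counts were used.

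No mm9 annotation was used: gene spans are the windows less their flanks, the strand of Mbp and Sox10 is textbook knowledge, and neighbours' names come from GRCm38.p6. Other glial and neuronal genes, planned as further markers, were not analysed here. The members, windows and lists were chosen with earlier results of these data known. All 5 windows were reported; regions were named if nearest a gene start, among the 3 highest-ranked shared ones of a window, group-only, apart between groups or widest, and a few others after their values were seen. Alternatives were a stricter score, equal-length lists, each library left out, flanks of 10 and 100 kb, gaps of 200 bp, 50% coverage, peaks set to 400 bp and the replicate block. Tiles with at least 5 regions, shares of a list, and equal-length lists with peaks set to 400 bp were added after seeing the data. The most alike lists had a Jaccard index of 0.473, so none was a duplicate. Merging matched bedtools 2.31.1, and the counting was tested on simulated data (Python 3.11.15, numpy 2.4.6, pandas 2.3.3).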

Additional observations from a re-analysis of the deposited data

How the results depend on the processing

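Over 110 alternative values of the peaks and covered bases of the 5 windows, leaving out the replicate block, cFos was lower in 108. The exceptions were both at Sox10 with flanks of 10 kb, with differences (cFos minus EYFP) of 0 peaks and 8 bases. With 3 libraries per group no exact test could fall under 0.05 in any of them. Without 1 library the differences in covered bases ranged from -3274 to -1255 at Slc1a2, -1467 to -687 at Gfap, -1427 to -1079 at Gja1, -5658 to -3917 at Mbp and -1095 to -531 at Sox10, and in peaks from -4.33 to -2.33, -2.67 to -1.67, -2.83 to -1.83, -7 to -4.50 and -2.50 to -1. Sox10 moved by 1.5 times or more without EYFP replicate 1 (-2.50 peaks) or EYFP replicate 2 (-1 peak and -531 bases). So did Slc1a2, from -2581 to -1255 bases, and Gfap, from -1130 to -687 bases, without EYFP replicate 2. The difference in share of a library's own peaks, -0.0339 percentage points, was -0.0261 with the stricter score, -0.0278 on equal-length lists and -0.0172 with flanks of 10 kb, and -0.0358 to -0.0327 without 1 library. Windows apart in covered bases, 4 of 5 as deposited, numbered 3 with peaks set to 400 bp, 3 on equal-length lists (Gja1, Mbp and, newly, Sox10), 2 with the stricter score, 1 with flanks of 10 kb and 1 on equal-length lists with peaks set to 400 bp; they numbered 5 with flanks of 100 kb, without EYFP replicate 1 or without cFos replicate 1, and 4 without each of the other 4 libraries. Windows apart in peaks, 3 of 5 as deposited, numbered 1 with the stricter score and 1 on equal-length lists. They numbered 1 with flanks of 10 kb, 2 with flanks of 100 kb, and 3 or 4 without 1 library. Leaving out a library cannot bring windows that are apart into overlap, so the counts without 1 library do not test the separation. Of tiles with at least 5 regions, 33.9% were apart this way in covered bases and 6.82% in peaks as deposited. On equal-length lists 2.72% were apart in peaks, and 2.76% in covered bases with peaks set to 400 bp. For the other alternatives, and for group-only regions under any alternative, no share over the genome was taken. The count of EYFP-only regions, 4, was 0 with the stricter score, 0 on equal-length lists, 7 when 50% of a region had to be covered, and 4 to 8 without 1 library. Without 1 library the looser rule alone can raise the count. The count of cFos-only regions was 0 under all 13 alternatives. The difference in mean percentile of shared regions, -4.39, was 8.03 on equal-length lists, 1.82 without EYFP replicate 2, and otherwise down to -10.2 without 1 library; with the stricter score no region was shared by all. That of the Slc1a2 start region, -3.35, was 7.33 on equal-length lists and -16.9 to 17.8 without 1 library (7.22 without EYFP replicate 2, 17.8 without cFos replicate 2). The replicate block, with differences taken within numbers, leaves the means as they are, for instance -4848 bases at Mbp, with a smallest paired p of 0.25. Same-numbered libraries did not deviate together (r = -0.0148, -0.00774 and 0.00300 over merged regions), and 1 of 6 libraries correlated best with its own number, and they share only a number.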

Other observations

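Outside the windows, called sites were sparse on some sides. The next merged region below the Gfap window lay 97.0 kb away and was called in 2 libraries, and the next below the Mbp window lay 110 kb away and was called in EYFP libraries only, 2 of 3. The next below the Gja1 window, 97.6 kb away at chr10:55947750-55949368, was called in all 6 libraries and was 1619 bp wide, wider than any region in the Gja1 window. Beside Slc1a2, the regions just outside lay 8.11 kb below, called in 1 cFos library, and 41.4 kb above, called in 2 EYFP libraries. Beside Sox10 they lay 6.40 kb below, called in 1 EYFP library, and 10.1 kb above, called in 1 cFos library.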
